A study of Mus musculus with 6 samples.

Results

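The cholesterol genes described here are 31 genes for the synthesis of cholesterol from acetyl-CoA, for the sensing of sterols and for the uptake, transfer and storage of cholesterol. They were chosen by name and known role, with earlier results of these data known, and all 31 are among the 12151 genes of the deposited table: 20 synthesis enzymes, 7 genes of the sterol sensor and 4 genes of uptake, transfer and storage. RNA was sequenced from mouse glioma cells in culture, in 3 libraries of mNS and 3 of GL261. The mNS cells, labelled as glioma stem-like cells, were kept as neurospheres without serum, in DMEM/F12 with B-27 supplement, basic FGF, EGF and heparin, at passages 72, 77 and 85. The GL261 cells, a glioma line labelled as differentiated glioma cells, were kept in DMEM with fetal bovine serum, at passages 17, 33 and 34 (the passage field of the last says 33, its title 34). Both media held antibiotics, HEPES, glutamine and beta-mercaptoethanol. No genotype, transgene or drug is given for either, and the labels do not say from which tumour or line the mNS cells came. Cell line, medium and passage range differ together between the groups and cannot be told apart.

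Values are in CPM, reads per gene scaled to the size of the library with the authors' TMM factors. The libraries held between 12534422 and 14225175 reads in listed genes, and each of the 31 genes had between 670 and 33798 reads over the 6 libraries. The labels name no separate cultures beyond the passage numbers; p-values therefore reflect only the variation among these 6 libraries, which may be technical. All 6 neural and glial markers checked were among the listed genes. Sox2 averaged 184 CPM in mNS and 181 CPM in GL261, and Nes 955 CPM in mNS and 1518 CPM in GL261. Olig2 averaged 437 CPM in mNS and 8.54 CPM in GL261, and Fabp7 89.8 CPM in mNS and 3.24 CPM in GL261. Pdgfra averaged 267 CPM in mNS and 111 CPM in GL261. The astrocyte gene Gfap averaged only 0.101 CPM in mNS, with 0 CPM at passage 85, and 3.45 CPM in GL261. Of 26 markers of other cell types, 5 had values in the table. The 2 of fibroblasts and pericytes, mainly the collagen gene Col1a1, summed to between 4.64 and 8.61 CPM in mNS and between 119 and 136 CPM in GL261, and the 3 of microglia and macrophages, mainly Cd68, to between 8.50 and 11.2 CPM in mNS and between 4.62 and 6.26 CPM in GL261. Cd68 averaged 8.09 CPM in mNS and 2.95 CPM in GL261, while Csf1r, the receptor that microglia depend on, had the lower mean in mNS, with 0.0488 CPM in mNS and 1.68 CPM in GL261. Their part in the results below was not tested. In bulk RNA, a change in how many cells express a gene and a change in RNA per cell look the same.

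Cells make cholesterol through the mevalonate pathway, which builds isoprene units from acetyl-CoA, joins them into squalene, closes the rings to lanosterol and trims lanosterol to cholesterol. When sterols in the membrane of the endoplasmic reticulum run low, the escort protein SCAP carries the SREBP transcription factors to the Golgi, where a pair of proteases frees the part that enters the nucleus. That part binds sterol regulatory elements in promoters, usually beside sites of NF-Y and Sp1, and INSIG proteins hold the complex back when sterols are plentiful. In the brain cholesterol is made locally, since lipoproteins of the blood do not cross into it, and glial cells make much of it.

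No promoter window was found for Fdps, Fdft1, Sqle and Stard4, which the search below does not cover. Promoter windows from RefSeq (GRCm38.p6, the assembly of mm10), from 250 bases before to 50 after each start site, were found for the other 27 of the 31 genes. They were searched on both strands for the sterol regulatory element consensus TCACNCCAC, for the NF-Y site CCAAT and for the Sp1 site GGGCGG. Windows of 4 genes are shown because they hold the consensus or a near match and belong to the genes whose expression differed: an early enzyme, a late enzyme, the main transcription factor of the pathway and its brake. Capitals mark the consensus in Hmgcs1, matches with 1 letter other than the consensus in the other windows, and every CCAAT on either strand (ATTGG when read on the printed strand). The search with 1 other letter, and the choice of which windows to print, were made after the exact search had been seen.
Hmgcs1, chr13:119690101-119690400, plus strand: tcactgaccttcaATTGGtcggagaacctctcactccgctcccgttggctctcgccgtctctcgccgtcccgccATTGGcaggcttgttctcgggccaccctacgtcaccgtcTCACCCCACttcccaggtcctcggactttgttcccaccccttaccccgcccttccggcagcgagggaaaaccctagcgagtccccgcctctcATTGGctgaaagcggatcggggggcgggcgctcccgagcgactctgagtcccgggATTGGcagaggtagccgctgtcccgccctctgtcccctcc
Sc4mol (now Msmo1), chr8:64733529-64733828, minus strand: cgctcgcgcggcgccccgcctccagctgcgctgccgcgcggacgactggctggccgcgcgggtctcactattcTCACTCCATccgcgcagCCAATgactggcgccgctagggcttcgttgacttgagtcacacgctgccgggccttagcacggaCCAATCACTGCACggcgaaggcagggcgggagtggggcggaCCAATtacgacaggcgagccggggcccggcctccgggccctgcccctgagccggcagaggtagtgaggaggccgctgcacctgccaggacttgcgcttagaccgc
Srebf2, chr15:82147019-82147318, plus strand: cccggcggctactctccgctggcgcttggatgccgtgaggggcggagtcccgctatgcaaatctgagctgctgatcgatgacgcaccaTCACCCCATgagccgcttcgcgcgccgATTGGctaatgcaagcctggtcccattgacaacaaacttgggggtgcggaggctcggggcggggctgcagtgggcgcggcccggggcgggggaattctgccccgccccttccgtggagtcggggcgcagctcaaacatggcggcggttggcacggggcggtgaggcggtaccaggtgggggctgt
Insig1, chr5:28071162-28071461, plus strand: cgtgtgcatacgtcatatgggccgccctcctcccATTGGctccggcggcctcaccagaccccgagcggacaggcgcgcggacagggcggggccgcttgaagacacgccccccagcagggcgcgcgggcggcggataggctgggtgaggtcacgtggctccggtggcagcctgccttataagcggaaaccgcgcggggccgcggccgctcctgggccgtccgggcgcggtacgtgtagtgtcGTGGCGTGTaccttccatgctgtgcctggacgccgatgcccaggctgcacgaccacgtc

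The Hmgcs1 window was the only member window with the exact consensus, beginning 137 bases before the start site, as against 1.48% of the 8906 tested genes with a window under the same symbol. With 1 other letter allowed, 11 of the 27 genes had a match (40.7%), against 29.3% of those 8906 genes. In Srebf2 the near match begins 162 bases before the start site, and in Insig1 it begins 9 bases before it. In Sc4mol there are 2 near matches, beginning 177 and 92 bases before the start site, and the match nearer the start site overlaps a CCAAT by 1 base. CCAAT was present for 23 of 27 genes (85.2%), including 16 of the 17 enzymes with a window, against 43.8% of the 8906. Acat2, Scap, Mbtps1 and Mbtps2 had no CCAAT in these windows. The Sp1 letters were present for 24 of 27 (88.9%), against 70.8% of the 8906. Some genes have several windows and so more chances of a match. A match is a description of letters and says nothing about binding.

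Nearly the whole synthesis route was higher in mNS than in GL261. Of the 20 enzymes, 19 rose and 1, Ggps1, was not called, at a limma adjusted p under 0.05; all 20 differences lay above 0. Among all 12006 genes tested, 32.2% were called higher and 32.1% lower in mNS. The called rise was estimated at 1 or more on the log2(CPM + 1) scale, about 2-fold, in 16 of the 20 enzymes. That held for 11.3% of all genes. Among the 16, Mvk, Pmvk and Hsd17b7 were not called when the null was a 2-fold change. The median log2 difference of the enzymes was 1.70, with a range of 0.05 to 3.13, and that of all tested genes was -0.0027. In 19 of the 20 enzymes every mNS library lay above every GL261 library, which held for 34.7% of all genes. Over all 31 genes 25 rose and 3 fell, where 64.3% of all genes were called in either direction. The groups did not overlap for 24 of the 31 with mNS above and for 3 with mNS below, against 35.2% of all genes with mNS below and 69.9% in either direction.

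**Figure D1:**
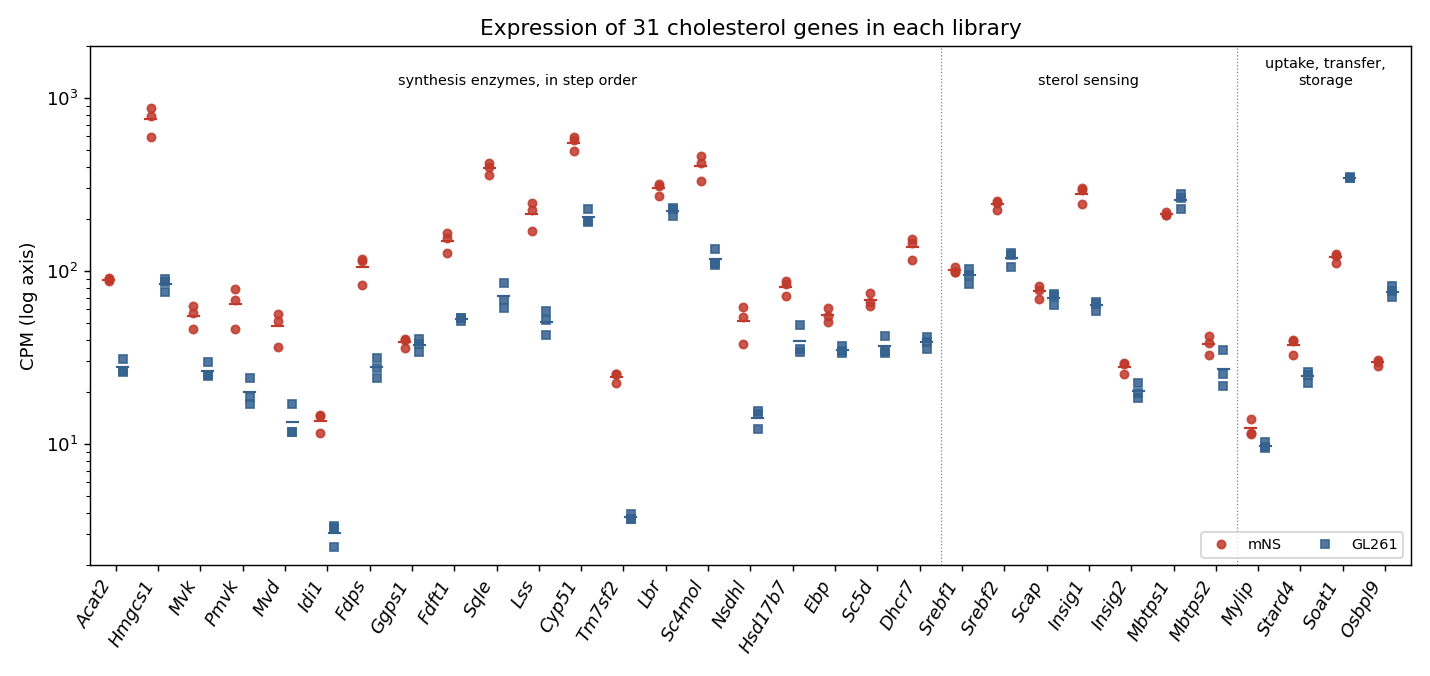
CPM (log axis) of the 31 genes in each library, mNS as red circles left of GL261 as blue squares, with short lines at the group means; enzymes stand in step order, then the sensor genes, then uptake, transfer and storage. The groups separate for 19 of 20 enzymes, Ggps1 being the exception, and Soat1 and Osbpl9 are lower in mNS.

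The route from acetyl-CoA to the prenyl diphosphates opens with Acat2, the cytosolic thiolase that joins 2 acetyl-CoA, and Hmgcs1, the synthase that adds the next one. Hmgcs1 had 595, 783 and 877 CPM in mNS at passages 72, 77 and 85, against 76.0, 90.3 and 85.9 CPM in GL261 at passages 17, 33 and 34. This was the largest difference among the 31 genes, at 3.13 ± 0.13 on the log2 scale (SE, as in later differences; limma adjusted p = 2.46e-07), with a ratio of group means of 8.94. Every mNS library was several times above every GL261 library, and passage 72 was the lowest of the mNS libraries. Acat2 had 87.0, 89.9 and 90.6 CPM in mNS, against 31.2, 26.5 and 26.2 CPM in GL261 (log2 difference 1.64 ± 0.09, limma adjusted p = 7.74e-07). Its mNS libraries were nearly level. Of the 100-base windows of its transcripts, 28.9% also occur in its neighbour Acat3, so that reads of these genes may have been mixed or lost.

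The next 3 enzymes turn mevalonate into the isoprene unit by adding phosphates and removing carbon dioxide. Mvk, mevalonate kinase, averaged 55.3 ± 8.60 CPM in mNS and 26.5 ± 2.69 CPM in GL261 (SD, n = 3 each), a ratio of 2.08. Leaving out a library put the Mvk ratio between 1.94 and 2.26. Pmvk, phosphomevalonate kinase, had 46.4, 68.1 and 78.7 CPM in mNS, against 24.1, 17.1 and 18.8 CPM in GL261 (log2 difference 1.62 ± 0.20, limma adjusted p = 0.000119). Mvd, the decarboxylase, had 36.5, 51.7 and 56.1 CPM in mNS, against 16.9, 11.7 and 11.7 CPM in GL261 (log2 difference 1.76 ± 0.19, limma adjusted p = 5.82e-05). In both Pmvk and Mvd the groups approached each other most at mNS passage 72 and GL261 passage 17, without overlap.

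Idi1, the isomerase that makes the second form of the isoprene unit, was the least abundant enzyme, also per kilobase of exon. It had 14.7, 14.5 and 11.6 CPM in mNS, against 3.28, 3.36 and 2.53 CPM in GL261, a ratio of group means of 4.45. Its log2 difference of 1.85 ± 0.15 (limma adjusted p = 9.04e-06) understates that ratio because of the added 1 CPM. Fdps, which joins the units to farnesyl diphosphate, had 83.4, 114 and 118 CPM in mNS, against 31.5, 24.0 and 27.6 CPM in GL261 (log2 difference 1.88 ± 0.15, limma adjusted p = 8.33e-06). Between 15.8% and 21.4% of the 100-base windows of these 2 genes recur in numbered gene models, so that reads of these copies may have been mixed or lost.

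Ggps1 stands on the side branch that lengthens farnesyl diphosphate to the geranylgeranyl group, which is attached to small GTPases. It had 39.6, 40.7 and 35.7 CPM in mNS, against 34.1, 40.4 and 37.7 CPM in GL261. The groups overlapped, and the log2 difference was 0.05 ± 0.09 (limma adjusted p = 0.674), or -0.016 without GL261 replicate 1 at passage 17. The other 7 enzymes up to this branch were all called higher, with estimated differences of at least 1 on the log2 scale.

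All 12 enzymes from squalene to cholesterol rose, 9 of them by at least 1 on the log2 scale. Fdft1, squalene synthase, draws farnesyl diphosphate into the sterol branch; it had 128, 154 and 165 CPM in mNS, against 53.4, 53.4 and 51.7 CPM in GL261 (log2 difference 1.47 ± 0.10, limma adjusted p = 2.77e-06). Sqle, the epoxidase that adds oxygen to squalene and a slow step of the route, had 356, 399 and 419 CPM in mNS, against 85.1, 61.0 and 67.5 CPM in GL261 (log2 difference 2.45 ± 0.12, limma adjusted p = 5.37e-07). The lowest mNS value was more than 4 times the highest GL261 value. Lss, the cyclase that closes the rings to lanosterol, had 169.6, 226 and 246 CPM in mNS, against 58.5, 42.4 and 51.9 CPM in GL261, a ratio of 4.19. Cyp51, the demethylase that starts the trimming of lanosterol, was abundant in both groups, with 493, 568 and 596 CPM in mNS, against 227, 194 and 193 CPM in GL261, a ratio of 2.70.

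The reduction that follows Cyp51 can be done by Tm7sf2 or by Lbr, which also anchors lamins at the nuclear envelope. Tm7sf2 had 22.6, 25.4 and 25.3 CPM in mNS, against 3.95, 3.66 and 3.68 CPM in GL261 (log2 difference 2.42 ± 0.11, limma adjusted p = 3.07e-07), the second largest ratio of group means after Hmgcs1, at 6.50. Lbr had 270.0, 312 and 319 CPM in mNS, against 208, 231 and 229 CPM in GL261 (log2 difference 0.43 ± 0.08, limma adjusted p = 0.00139), the smallest of the 19 called rises among enzymes. Whether the 2 genes differed from each other in their change was not tested. Per kilobase of exon Lbr remained the more abundant transcript, with 85.5 CPM in mNS and 63.4 CPM in GL261, beside 14.5 CPM in mNS and 2.22 CPM in GL261 for Tm7sf2. Tm7sf2 shares 7.92% of its 100-base windows with Vps51 on the same strand.

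The removal of the methyl groups at carbon 4 takes Sc4mol, Nsdhl and Hsd17b7, and all 3 rose. Sc4mol, the methyl sterol oxidase, had 333, 420.3 and 461 CPM in mNS, against 135, 111 and 108 CPM in GL261 (log2 difference 1.77 ± 0.13, limma adjusted p = 5.46e-06). Nsdhl, the decarboxylating dehydrogenase, had 37.8, 54.2 and 61.6 CPM in mNS, against 15.4, 12.3 and 14.8 CPM in GL261, a ratio of 3.61. Hsd17b7, the ketoreductase of the complex, averaged 81.0 ± 8.68 CPM in mNS and 39.3 ± 8.07 CPM in GL261, a ratio of 2.06. Leaving out a library put the Hsd17b7 ratio between 1.93 and 2.34. The Hsd17b7 groups had SDs of like size and did not overlap.

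The last steps move and remove double bonds. Ebp, the isomerase, averaged 55.6 ± 5.54 CPM in mNS and 34.9 ± 1.68 CPM in GL261 (log2 difference 0.65 ± 0.09, limma adjusted p = 0.000289). Sc5d, the desaturase that follows, averaged 67.7 ± 6.13 CPM in mNS and 36.7 ± 4.77 CPM in GL261 (log2 difference 0.87 ± 0.11, limma adjusted p = 0.00014). With Lbr, these made up the 3 called enzymes that changed by less than 1 on the log2 scale. Dhcr7, the reductase that removes a double bond at the end of the route, had 115, 144 and 153 CPM in mNS, against 39.0, 35.5 and 41.3 CPM in GL261 (log2 difference 1.80 ± 0.11, limma adjusted p = 2.20e-06).

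**Figure D2:**
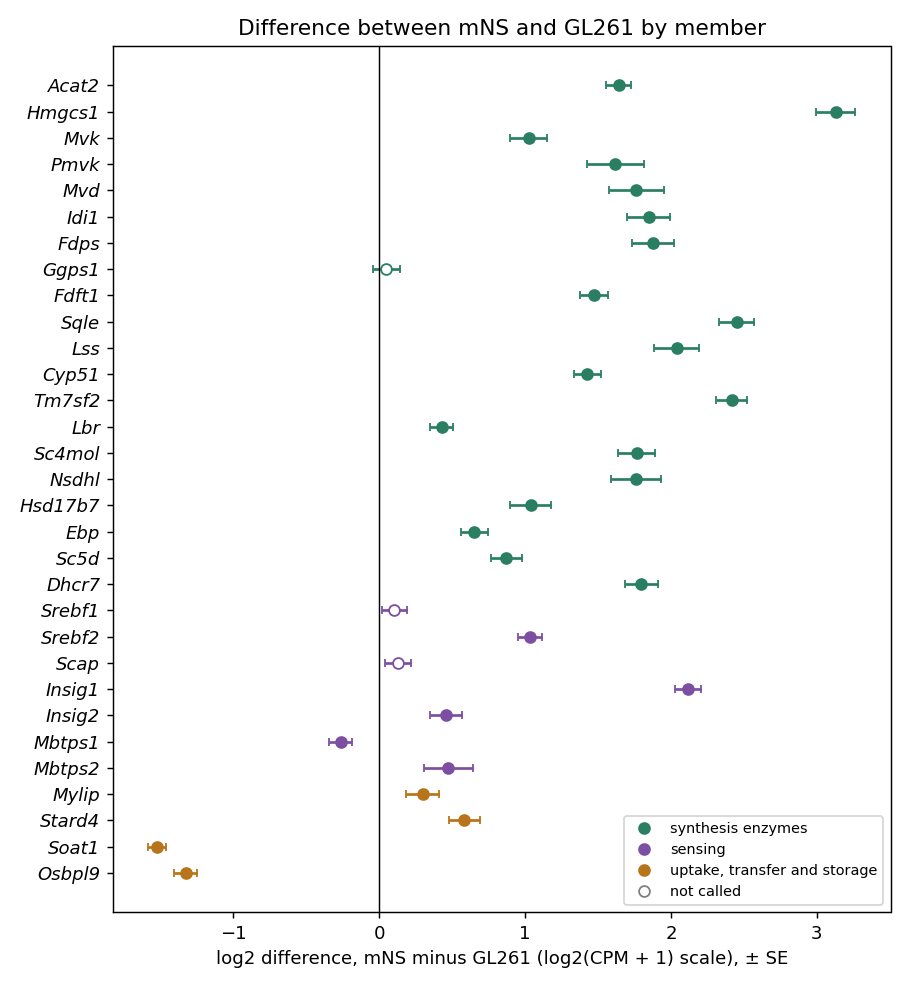
Log2 difference (mNS minus GL261, on the log2(CPM + 1) scale) of each of the 31 genes with its standard error, enzymes at the top in step order; filled points were called and open points (Ggps1, Srebf1 and Scap) were not. The enzymes lie between 0.05 and 3.13, and Soat1 and Osbpl9 at -1.52 and -1.33.

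The route also differed in level along its length. Per kilobase of exon, the most abundant enzymes in mNS were Hmgcs1 at 216 CPM, Sc4mol at 198 CPM, Sqle at 142 CPM and Cyp51 at 140 CPM. In GL261 they were Lbr at 63.4 CPM, Sc4mol at 57.6 CPM and Cyp51 at 52.1 CPM, while Hmgcs1 stood at 24.1 CPM and Sqle at 25.8 CPM. Idi1 was lowest in both, at 4.49 CPM in mNS and 1.01 CPM in GL261, in the same unit. These levels rest on exon lengths from GENCODE M21, which may differ from the annotation the authors counted with. The 31 genes lie on 16 chromosomes, with at most 4 on any one.

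Within each group most enzymes also moved together, with exceptions in both groups. In mNS, passage 72 had the lowest value of the 3 libraries for 18 of 20 enzymes, against 40.5% of all tested genes, and passage 85 had the highest for 17 of 20, against 36.5%. The exceptions at the low end were Idi1 and Ggps1, which were lowest at passage 85. The ratio of passage 85 to passage 72 had a median of 1.26 over the 20 enzymes, from 0.789 for Idi1 to 1.70 for Pmvk, and a median of 0.998 over all genes. In GL261, passage 17 had the highest value for 14 of 20 enzymes, against 38.8% of all genes. There the ratio to passage 17 had a median of 0.853 at passage 33 and 0.882 at passage 34. With each gene set against its 6-library mean, the median enzyme stood at 0.54, 0.94 and 0.98 on the log2 scale in mNS at passages 72, 77 and 85, and at -0.68, -0.93 and -0.85 in GL261 at passages 17, 33 and 34. There is 1 library per passage, so these values carry no test, and passage cannot be told apart from any other difference between single libraries. The lowest of the mNS medians, at passage 72, stayed above the highest of the GL261 medians, at passage 17.

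**Figure D3:**
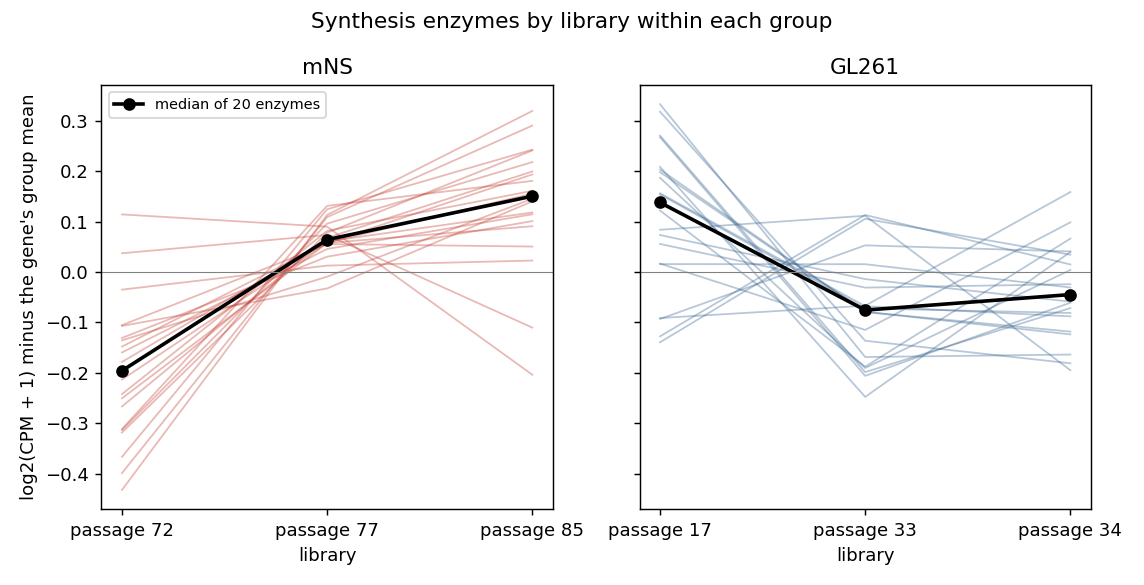
Log2(CPM + 1) of the 20 synthesis enzymes minus each gene's mean in its group, by passage, for mNS (left) and GL261 (right); thin lines are enzymes and the black line is their median. Passage 72 is lowest for 18 of 20 enzymes in mNS, and passage 17 is highest for 14 of 20 in GL261.

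Among the 7 sensor genes, 4 rose, 1 fell and 2 were not called, a share of calls near the 64.3% of all genes. Of the 4 rises, that of Mbtps2 came with overlapping groups and was lost in 7 of 20 alternative analyses. Among the 7, the threshold of 0.01 and the null of a 2-fold change could not have kept the call. Insig1, the retention protein that is itself a target of SREBP, had 245, 292 and 299.9 CPM in mNS, against 66.6, 59.0 and 64.4 CPM in GL261. The groups lay far apart, with a log2 difference of 2.12 ± 0.09 (limma adjusted p = 2.31e-07) and a ratio of 4.40. Its relative Insig2 had 29.5, 25.5 and 29.0 CPM in mNS, against 18.3, 22.4 and 19.7 CPM in GL261 (log2 difference 0.46 ± 0.11, limma adjusted p = 0.00513). Per kilobase of exon Insig1 stood at 103 CPM in mNS and 23.5 CPM in GL261, and Insig2 at 9.49 CPM in mNS and 6.83 CPM in GL261.

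The transcription factor genes differed in their calls. Srebf2, whose product SREBP-2 drives mainly the sterol enzymes and which is also its own target, had 226, 253 and 248 CPM in mNS, against 126, 105 and 123 CPM in GL261 (log2 difference 1.03 ± 0.08, limma adjusted p = 1.08e-05). Srebf1, whose product drives mainly fatty acid synthesis, had 98.5, 105 and 99.1 CPM in mNS, against 103, 84.1 and 95.3 CPM in GL261. The Srebf1 groups overlapped, and the log2 difference of 0.10 ± 0.08 was not called (limma adjusted p = 0.303), except with array weights (adjusted p = 0.0227). Whether Srebf2 and Srebf1 differed in their change was not tested. The counts do not separate the isoforms of Srebf1.

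Scap, the escort, had 82.4, 77.5 and 68.7 CPM in mNS, against 63.8, 71.6 and 73.3 CPM in GL261, overlapping and without a call (limma adjusted p = 0.239). Mbtps1, the protease that makes the first cut in SREBP, averaged 213 ± 4.32 CPM in mNS and 258 ± 26.4 CPM in GL261 (log2 difference -0.27 ± 0.08, limma adjusted p = 0.0166). It was no longer called when the columns were rescaled to a common sum (adjusted p = 0.0814), under quantile normalisation (0.0988), or without GL261 replicate 2 or 3 (0.0617 and 0.0618). Mbtps2, which makes the second cut, averaged 37.8 ± 4.76 CPM in mNS and 27.3 ± 6.71 CPM in GL261 with overlapping values (log2 difference 0.47 ± 0.17, limma adjusted p = 0.0341). That call was lost without mNS replicate 2 or 3 and without GL261 replicate 2 or 3 (adjusted p between 0.0879 and 0.119), and 27.0% of its 100-base windows also occur in Yy2, a gene within it on the same strand.

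Genes of uptake, transfer and storage went in both directions. Soat1, which esterifies cholesterol for storage in droplets, had 112, 126 and 123 CPM in mNS, against 349.8, 344 and 346 CPM in GL261. The replicates of each group lay close together, and the log2 difference was -1.52 ± 0.06 (limma adjusted p = 1.78e-07), a level 2.89-fold lower in mNS. Osbpl9, of the oxysterol-binding protein family of lipid carriers, had 28.3, 29.9 and 30.7 CPM in mNS, against 81.5, 70.6 and 76.1 CPM in GL261 (log2 difference -1.33 ± 0.08, limma adjusted p = 1.90e-06). Called falls estimated at 1 or more on the log2 scale made up 8.47% of all tested genes.

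Stard4, a soluble sterol carrier and known SREBP target, had 32.5, 39.5 and 40.1 CPM in mNS, against 22.6, 24.9 and 26.2 CPM in GL261 (log2 difference 0.58 ± 0.11, limma adjusted p = 0.00143). Mylip, the ubiquitin ligase that marks lipoprotein receptors for degradation and is known as a target of the oxysterol receptor LXR, averaged 12.3 ± 1.38 CPM in mNS and 9.79 ± 0.416 CPM in GL261. Its groups did not overlap, but the call was at the threshold (log2 difference 0.30 ± 0.12, limma adjusted p = 0.0495) and was lost in 16 of 20 alternative analyses, including each of the 6 that left out a library.

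Neighbouring parts of sterol and lipid metabolism were counted in the same fit from 8 lists, 105 genes in all outside the 31, of which 45 were called higher and 25 lower (their median log2 difference was 0.17). Calls in either direction were thus about as frequent in these lists together as among all tested genes, of which 64.3% were called. That total shows nothing particular to the lists. By direction, rises outnumbered falls in them, whereas 32.2% of all genes were called higher and 32.1% lower. The lists also differed from each other, as given below. Acat1, the mitochondrial thiolase, was called higher, with 177 ± 12.9 CPM in mNS and 133 ± 4.10 CPM in GL261. Of 17 genes of fatty acid synthesis and activation tied to SREBP-1, 12 rose and 2 fell. Of these rises 7 were estimated at 1 or more on the log2 scale, as were called rises in 11.3% of all genes. Lpin1, a phosphatidate phosphatase, averaged 34.7 ± 3.51 CPM in mNS and 2.66 ± 0.747 CPM in GL261, Acss2, which makes acetyl-CoA from acetate, 42.6 ± 13.9 CPM in mNS and 5.32 ± 1.27 CPM in GL261, and Acsl3, an acyl-CoA ligase of lipid droplets, 401 ± 65.5 CPM in mNS and 128 ± 6.49 CPM in GL261. Me1, the malic enzyme that supplies NADPH, fell to 34.7 ± 5.34 CPM in mNS, against 114 ± 35.7 CPM in GL261.

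Farnesyl and geranylgeranyl groups are used by further branches. Of 16 genes of prenyl transfer and of ubiquinone and dolichol synthesis, 4 rose and 9 fell, where 32.2% of all genes were called higher and 32.1% lower; their median log2 difference was -0.26, against -0.0027 over all genes. Rabggta, a subunit of the enzyme that prenylates Rab proteins, averaged 33.6 ± 2.12 CPM in mNS and 109 ± 21.3 CPM in GL261. Nus1, of dolichol synthesis, averaged 154 ± 0.748 CPM in mNS and 324 ± 22.3 CPM in GL261, and Fntb, the beta subunit of farnesyltransferase, 8.17 ± 0.988 CPM in mNS and 15.9 ± 1.08 CPM in GL261. Chml, a Rab escort protein, rose to 42.9 ± 1.43 CPM in mNS, against 13.6 ± 1.51 CPM in GL261.

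Of 13 genes of lipoprotein uptake and lysosomal exit, 4 rose and 5 fell, which is near the 32.2% of all genes called higher and the 32.1% called lower. The receptor gene Lrp8 had 90.5 ± 6.21 CPM in mNS and 39.4 ± 3.04 CPM in GL261, and the lysosomal membrane gene Lamp2 318 ± 9.99 CPM in mNS and 173 ± 9.66 CPM in GL261. The receptor gene Lrp1 fell to 21.5 ± 1.87 CPM in mNS, against 38.7 ± 3.83 CPM in GL261. Nceh1, a hydrolase of cholesteryl esters and so the counterpart of Soat1, fell to 68.4 ± 1.38 CPM in mNS, against 153 ± 33.9 CPM in GL261.

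Of 9 genes of sterol efflux and LXR, 3 rose and 1 fell, where 32.2% of all genes were called higher and 32.1% lower. The 3 rises were near that share, and the same shares stand beside the lists that follow. The transporter genes Abca2 and Abca3 rose by 1.46 and 0.95 on the log2 scale and the LXR gene Nr1h3 by 0.78, while the partner receptor gene Rxra stood at -1.15. Of 6 sterol hydroxylase and related genes, 5 rose and the other lay above 0 without a call. Among the rises were Cyp39a1 (log2 difference 0.57), Cyp7b1 (0.39) and Hsd3b7 (0.26). The other 2 rises were larger, at least 1 and up to 2.93 on the log2 scale. They were in genes averaging under 10 CPM in the higher group, which are not named here. Of 16 genes for the sterol-triggered degradation of synthesis proteins at the endoplasmic reticulum, 2 rose and 5 fell. The falls were near the 32.1% of all genes called lower. Erlin1, a scaffold of that machinery, fell to 69.7 ± 1.05 CPM in mNS, against 157 ± 9.0005 CPM in GL261, and Ube2g2 and Erlin2 fell by less (log2 differences -0.57 and -0.42). Of 25 sterol transfer genes, 12 rose and 3 fell, with a median log2 difference of 0.20. Pgrmc1, a heme-binding partner of sterol enzymes, averaged 185 ± 7.08 CPM in mNS and 65.4 ± 2.37 CPM in GL261, whereas its relative Pgrmc2 averaged 100.1 ± 8.48 CPM in mNS and 159 ± 9.61 CPM in GL261. Osbpl11 rose by 0.90 and the caveolin gene Cav1 stood at -0.81 on the log2 scale.

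**Figure D4:**
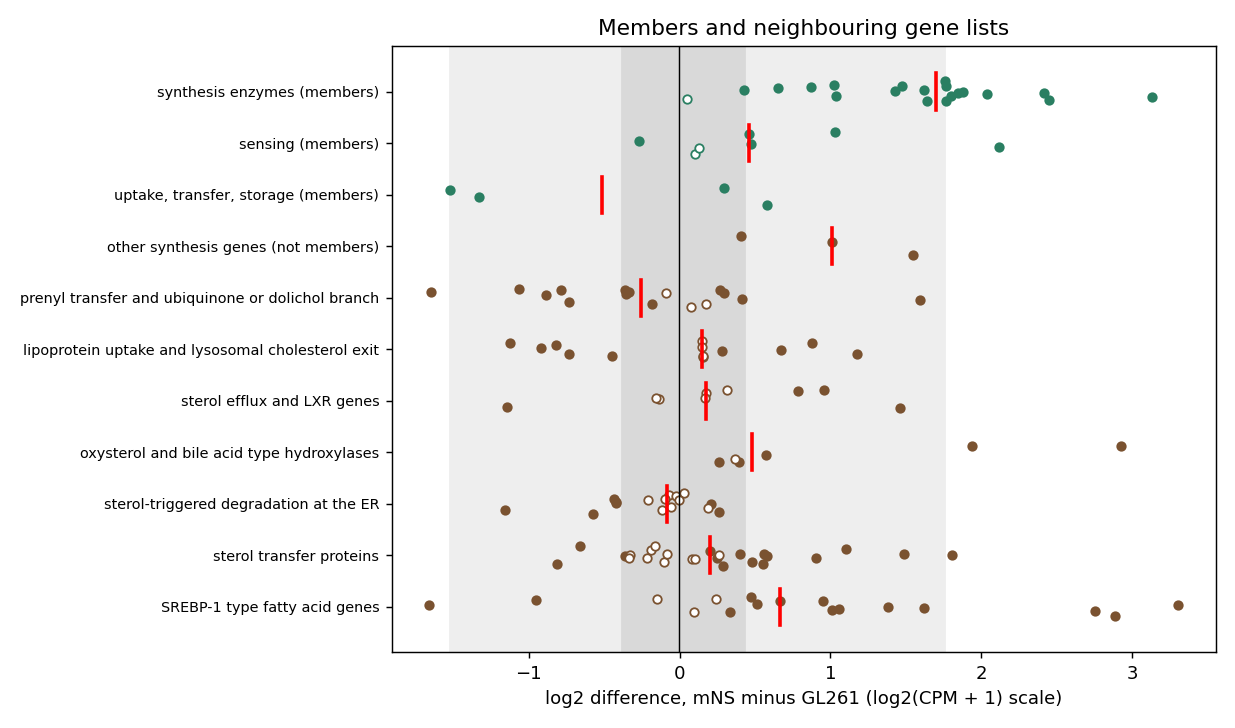
Log2 differences (mNS minus GL261) of single genes in the 3 groups of members and in 8 neighbouring lists; filled points were called, open points were not, and red bars are list medians. The black line is the median of all 12006 tested genes, the dark band holds their middle quartiles (-0.38 to 0.43) and the light band the 5th to 95th percentile (-1.52 to 1.76); the synthesis enzymes have a median of 1.70.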

How the data were processed

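Stranded libraries were prepared from total RNA with ribosomal RNA removed, per the series text and the labels' protocols. Tools in the submitters' processing notes are edgeR 3.4.2, HTSeq 0.5.3p9 and TopHat2 (version 2), with build mm10 and no roles given. The deposited signal is CPM with the authors' TMM factors. Dividing each column by the worth of 1 read (0.0708 to 0.0773 CPM) gave whole reads for 100% of values within 0.001 reads.

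The test was limma 3.58.1 (R 4.3.3) with trend on log2(CPM + 1), two-sided, with p-values adjusted (Benjamini-Hochberg) across 12006 genes averaging 1 CPM or more; 145 lay below, none of them a member. The log2 scale with an added 1 understates changes of low genes. Ratios are of group means of CPM. Recovered reads were tested with edgeR 4.0.16 (quasi-likelihood and exact test) and DESeq2 1.42.0 as alternatives. The fit was checked on simulated counts. Members and lists were chosen with earlier results of these data known. Every member is named, with up to 4 called genes per neighbouring list that have the largest differences and at least 10 CPM in the higher group (the 2 most abundant where none was called), except that 3 of the genes this takes are not reported here. Overlaps and exon lengths come from GENCODE M21 (GRCm38).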

Additional observations from a re-analysis of the deposited data

How the results depend on the processing

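When the null was a 2-fold change, limma called 14 of the 25 risers, 2 of the 3 falls, 14 of the 70 neighbouring list genes and 1414 of the 7714 genes; this null is stricter by construction. In the other alternatives (pseudocounts of 0.5 and 0.1, no filter, a mean of at least 5 CPM, 3 rescalings, no trend, array weights, an adjusted p under 0.01, edgeR, DESeq2) and on leaving out a library, the counts moved by 1.5 times at most; the falls among the members went to 2 with columns rescaled to a common sum, under quantile normalisation and at an adjusted p under 0.01. Leaving out each library in turn gave 23 to 24 rises and 2 to 3 falls among the members (2 without GL261 replicate 2 or 3), 59 to 70 calls in the neighbouring lists and 6603 to 7781 calls over all genes. edgeR's quasi-likelihood test called 25 rises and 3 falls, and DESeq2 24 and 3. Over all genes, rescaling the columns to a common sum gave 4456 rises and 3198 falls, against 3865 and 3849 in the main fit. The only change of direction was that of Ggps1, whose log2 difference lay between -0.016 (without GL261 replicate 1) and 0.104 (without GL261 replicate 2) when a library was left out, with no call in any alternative. No ratio of group means moved by more than 1.16 times when a library was left out. No paired analysis was possible because the labels give passages and no replicate numbers shared between groups. With 3 libraries a group, small differences such as those of Mylip, Mbtps1 and Mbtps2 were at the limit of what could be called.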
